A study of Mus musculus with 6 samples.

Results

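The epidermis of mice lacking Scd1 was compared between postnatal day 21 and postnatal day 1. The members are the Scd1-/- libraries, 3 of the 6 RNA-seq libraries of the series, and they were chosen by genotype alone: 1 library at day 21 and 2 at day 1. Stearoyl-CoA desaturase 1 places a double bond in saturated fatty acyl chains, and mice without it lose their hair. The study asked how that loss of hair arises, and the age comparison within the knockout asks how the mutant epidermis differed between a newborn skin that is building its first coat and a skin near the end of the first hair cycle. The study's text gives an earlier postnatal day for the older libraries than the labels do. The labels are followed here, and the hair cycle stage of the older libraries is uncertain to that extent.

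All animals were C57BL/6, and the knockout is a germline one, so every cell of the skin lacked the enzyme at both ages. One day 1 library was labelled female and 1 male, and the day 21 library was labelled female. Total epidermal cells were released by digesting skin, so the libraries can hold interfollicular epidermis, hair follicles, sebaceous glands and the immune cells and melanocytes that live among them. The study's methods describe dispase and then trypsin for cultured neonatal cells, and trypsin with scraping for flow cytometry. They do not say which isolation the sequenced cells had, so whether it differed between the ages is not known. The labels do not say how many animals went into a library, and p-values therefore measure only the spread between these libraries. The day 1 pair was 1 female and 1 male library, so its spread mixes differences between animals, between sexes and technical ones, which cannot be told apart. The day 21 libraries were delivered in a table of their own, so age and table cannot be told apart.

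The skin surface renews itself from basal keratinocytes, which sit on the basement membrane through integrins and hemidesmosomes, move upward, switch from keratins 5 and 14 to keratins 1 and 10, and fill with the proteins of the cornified envelope. Hair is built by matrix cells at the base of the follicle, which turn into an inner root sheath and a hair shaft packed with hair keratins and keratin-associated proteins, while stem cells in the bulge and in the upper follicle restart growth or feed the infundibulum and the sebaceous gland. In the mouse all follicles grow together after birth and then enter a first resting phase at about weaning.

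Depth was similar in the 3 libraries, at 16723683 and 18074702 counts at day 1 and 17419121 at day 21. A gene's level is given in CPM, its count divided by a library total scaled with the trimmed mean of M-values (TMM), in the order day 1 female, day 1 male, day 21. The share of counts from mitochondrial genes was 2.04% and 1.94% at day 1 and 7.70% at day 21, that from ribosomal RNA genes 0.0588%, 0.0577% and 0.245%, and that of the 10 most abundant genes 11.4%, 11.8% and 15.5%. In the WT libraries of the series the mitochondrial share was 2.42% and 2.35% at day 1 and 11.3% at day 21. Genes that respond within minutes to tissue handling were far lower at day 21: Fosb was at 738, 497 and 11.6 CPM (log2 fold change -5.73), Atf3 at 378, 251 and 7.81 CPM (-5.33) and Fos at 1005, 762 and 106 CPM (-3.06). WT showed falls of the same genes (-4.84, -5.57 and -2.75). The part of these shifts in the results was not tested.

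Both day 21 libraries of the series went against their label for sex. Xist, the RNA that coats the inactive X chromosome, was at 1084 CPM in the female and 0.108 CPM in the male day 1 library and at 212 CPM at day 21, while the Y-linked genes Kdm5d (0, 34.5 and 19.8 CPM), Eif2s3y (0, 52.4 and 37.4 CPM), Ddx3y (0, 48.8 and 40.7 CPM) and Uty (0, 17.7 and 21.1 CPM) were also present there. The library labelled female therefore held transcripts of both sexes. The WT day 21 library, also labelled female, held Xist at 1260 CPM and the same Y-linked genes, with Uty at 15.4, Kdm5d at 24.8, Eif2s3y at 31.5 and Ddx3y at 37.6 CPM, so the interaction rests on such a library in each genotype. The knockout library is the sole day 21 library of the knockout, so no result below can be given without it.

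The targeted gene was read first. Scd1 (ENSMUSG00000037071, GRCm38 chr19:44394451-44407709, minus strand) had 251 and 260 counts in the day 1 knockout libraries (14.2 and 14.0 CPM) and 0 counts in the day 21 library, at least 75.3-fold lower when the 0 is set to a floor of 3 counts. In the WT libraries it was at 151 and 204 CPM at day 1 and 167 CPM at day 21. The knockout libraries were thus the low ones at both ages, and the source of the residual day 1 reads was not tested. Among the other desaturases, Scd2 was at 183, 256 and 163 CPM (log2 fold change -0.43 ± 0.15 SE, adjusted p = 0.0107). The call was lost with a day 1 library left out (-0.66 without the female, -0.20 without the male), in fits whose spread came from the WT day 1 pair. Scd3, a desaturase of the sebaceous gland, was at 2.38, 1.83 and 3.69 CPM and did not pass the test (adjusted p = 0.0513). Scd4 stayed at or under 1.19 CPM in all 3 libraries.

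Of 16780 genes tested, 9087 (54.2%) were called, meaning an adjusted p under 0.05 in edgeR's quasi-likelihood test and a day 21 value outside both day 1 values. Higher at day 21 were 4592 genes (27.4%) and lower 4495 (26.8%). At least 2-fold differences were called for 2662 genes upward and 2668 downward, and at least 4-fold differences for 1452 and 1386. The median log2 fold change over all tested genes was -0.02, with an interquartile range of -0.73 to 0.62, against a median absolute difference of 0.17 between the day 1 libraries. The spread came from the day 1 pair alone, with 1 residual degree of freedom moderated across genes, and the lone day 21 library was assumed to vary like them. Fits that left out a day 1 knockout library used all 4 groups, where only the WT day 1 pair still had replicates. Their spread thus came from WT alone, with a biological coefficient of variation of 0.1753, against 0.1123 in the main fit. A call lost in such a fit, here and below, can follow from this wider spread, from the library left out, or from both. Which of them it was cannot be told apart. With so many genes called, a list of genes is read below against the 27.4% and 26.8% found over all tested genes, and lists are described by their counts and median with no test of the list.

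The difference between genotypes in the age change was tested in all 6 libraries as an interaction (the day 21 minus day 1 log2 change in Scd1-/- minus that in WT). It passed for 5112 of 18165 genes (28.1%), with 2776 more positive and 2336 more negative in the knockout. WT values are quoted below where that test bears on a gene of the knockout.

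Most transcripts of the keratinocyte's anchorage to the basement membrane were lower at day 21. Of 9 hemidesmosome components 8 were called lower and 1 higher, with a median log2 fold change of -1.39, and their summed level went from 7050 and 6660 CPM to 2190 CPM. The 24 tested genes of the basement membrane and dermal-epidermal junction held 16 called lower and 2 called higher (median -1.96, summed level 4050, 3910 and 1160 CPM). Of the 22 other integrins, by contrast, 15 were called higher and 3 lower.

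Col17a1 (ENSMUSG00000025064, GRCm38 chr19:47646344-47692094, minus strand) encodes collagen XVII, the transmembrane collagen of the hemidesmosome that also keeps follicle stem cells in place. Its level was 3235 and 3105 CPM at day 1 and 361 CPM at day 21 (log2 fold change -3.13 ± 0.16 SE, adjusted p = 6.82e-57). The day 21 value was thus far below both day 1 values, which lay close together. In WT the same gene was at 3716 and 3857 CPM at day 1 and 2374 CPM at day 21, and the interaction was -2.46 ± 0.27 (adjusted p = 0.000353).

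Laminin-332 is the ligand that hemidesmosomes bind. Of its chains, Lamb3 fell from 368 and 374 CPM to 81.5 CPM (log2 fold change -2.18 ± 0.17) and Lama3 from 309 and 261 CPM to 104 CPM (-1.45). The laminin receptor is the integrin pair α6β4. Itga6 was at 628, 553 and 148 CPM (-1.99 ± 0.17) and Itgb4 at 552, 544 and 260 CPM (-1.07 ± 0.16, adjusted p = 4.61e-10). The interaction passed for Itga6 (-1.33 ± 0.29, adjusted p = 0.00942), with 756, 617 and 433 CPM in WT, and for Lamb3 (-1.59 ± 0.27, adjusted p = 0.00308). For Itgb4 it did not pass (-0.20 ± 0.26, adjusted p = 0.579), with 599, 654 and 343 CPM in WT, nor for Lama3 (-0.52 ± 0.28, adjusted p = 0.18). Over the 9 hemidesmosome components it passed for 5 more negative and 1 more positive in the knockout.

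The inner plaque links these receptors to keratin filaments. Plec, which encodes plectin, fell from 817 and 823 CPM to 416 CPM (log2 fold change -0.98). Dst, which encodes the bullous pemphigoid antigen 1 isoforms, was at 650, 503 and 389 CPM (-0.57). This smaller difference was no longer called with a day 1 library left out (-0.38 without the female, -0.77 without the male). Dst was at 771, 607 and 1664 CPM in WT, and its interaction was -1.84 ± 0.33 (adjusted p = 0.00381). The one component that rose was Cd151, a tetraspanin of the laminin-binding integrin complexes, at 101, 109 and 286 CPM (1.44 ± 0.14).

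Itga3, the integrin subunit that binds laminin outside hemidesmosomes, had 338, 338 and 14.8 CPM (log2 fold change -4.51 ± 0.20, adjusted p = 2.89e-71). This was the largest fall among the integrins other than those of the hemidesmosome, and its interaction was -3.21 ± 0.26 (adjusted p = 0.000102), with 369, 402 and 156 CPM in WT. Itga2, a collagen receptor subunit, was at 35.6, 33.3 and 2.06 CPM (-4.06). Itgb1, the shared partner of both, was at 216, 202 and 201 CPM and did not pass the test. On the rising side stood Itgb8, a subunit of a receptor that activates TGF-β, at 27.0, 23.7 and 121 CPM (2.25), and Itgb6, whose receptor does the same, at 12.2, 10.9 and 29.2 CPM (1.34). The 7 leukocyte integrin genes of the same list were all called higher, from a summed 43.5 and 30.8 CPM to 272 CPM, beside immune cell markers that are given further on.

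In the basement membrane itself, genes of the Fraser complex, which holds epidermis to dermis in the fetus, were lower. Frem2 was at 243 CPM in each day 1 library and at 5.93 CPM at day 21 (log2 fold change -5.35 ± 0.21), and Fras1 at 178, 165 and 8.87 CPM (-4.27). Npnt, which encodes nephronectin, a ligand made by bulge cells that anchors the arrector pili muscle, was at 81.5, 75.9 and 2.75 CPM (-4.84). Col7a1, the anchoring fibril collagen, fell from 1134 and 1130 CPM to 128 CPM (-3.15), and Lama5 from 389 and 356 CPM to 43.6 CPM (-3.10). Against this direction, Lamb1 rose from 16.4 and 18.4 CPM to 104 CPM (2.58). Tnc, the matrix protein tenascin C, which is made around the bulge and in wounds, rose from 234 and 195 CPM to 364 CPM (0.77 ± 0.15), while in WT it was at 241, 276 and 27.1 CPM (interaction 4.02 ± 0.29, adjusted p = 6.62e-05).

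**Figure D1:**
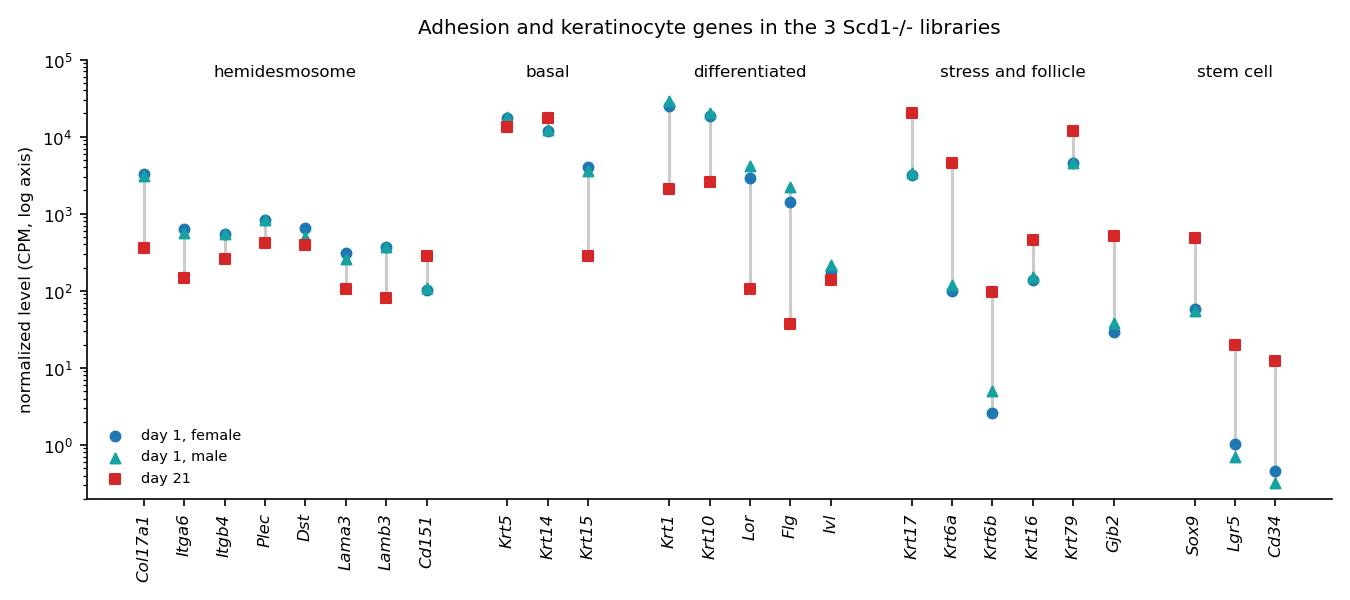
Level in CPM (log axis) of 25 genes of hemidesmosomes, basal and differentiated keratinocytes, stress keratins and follicle stem cells in the 3 Scd1-/- libraries, 1 point per library. The day 21 point of Col17a1 lies at 361 CPM, below both day 1 points, while that of Krt17 lies at 20529 CPM, above both.

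The keratin program was reordered. The markers of the labelled epidermal cells were present in every library, where the lowest of keratins 5, 14, 1 and 10 was Krt1 at day 21 with 2084 CPM. Of 15 basal keratinocyte genes 4 were called higher and 7 lower (median log2 fold change -0.25, with 1 called higher when either day 1 library was left out). Of 35 spinous and granular genes 9 were called higher and 20 lower (median -0.58, with 4 called higher when either day 1 library was left out), and their summed level went from 64000 and 75100 CPM to 17900 CPM. Stress keratins and alarmins went the other way, with 9 of 16 called higher and 5 lower and a summed level of 6820, 7400 and 28300 CPM, of which Krt17 held 20529 and Krt6a 4562 CPM at day 21.

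The pair of basal keratins stayed near its day 1 level. Krt5 was at 17202, 17856 and 13343 CPM (log2 fold change -0.39 ± 0.11) and Krt14 at 11800, 12143 and 17465 CPM (0.54 ± 0.11). Both were called, in opposite directions. Neither call held with a day 1 library left out, where the spread came from the WT day 1 pair, but the fold changes stayed close to these. They were -0.43 for Krt5 and 0.51 for Krt14 without the female library, and -0.40 and 0.53 without the male one. In WT both were lower at day 21, Krt14 at 11901, 16116 and 2369 CPM (interaction 3.11 ± 0.33, adjusted p = 0.000291). Krt15, a keratin of quiet basal cells and of the bulge, was at 4020, 3625 and 286 CPM (-3.74 ± 0.16). Trp63, the transcription factor that defines stratified epithelium, was at 553, 460 and 474 CPM and did not pass the test.

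Keratins of the suprabasal layers were lower. Krt1 was at 25081, 29226 and 2084 CPM (log2 fold change -3.70 ± 0.13) and its partner Krt10 at 18555, 20500 and 2576 CPM (-2.92 ± 0.13). The fall of Krt1 did not differ from that in WT beyond the error (interaction 0.20 ± 0.30, adjusted p = 0.65), whereas that of Krt10 was larger in the knockout (-1.36 ± 0.29, adjusted p = 0.0083).

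The late products of the granular layer fell further. Lor, which encodes loricrin, the main protein of the cornified envelope, was at 2904, 4141 and 105 CPM (log2 fold change -5.07 ± 0.18, adjusted p = 8.72e-91). In WT it was at 3027, 4305 and 2902 CPM, and the interaction was -4.73 ± 0.42 (adjusted p = 0.000131). Flg, filaggrin, which bundles keratin and yields the skin's moisturizing factor, was at 1399, 2236 and 37.4 CPM (-5.60 ± 0.20), and Flg2 at 508, 746 and 19.3 CPM (-5.02). For Flg2 the genotypes went apart, with 584, 523 and 2268 CPM in WT (interaction -7.06 ± 0.40, adjusted p = 2.28e-05). Tgm3, a transglutaminase that cross-links the envelope and hair proteins, fell from 491 and 519 CPM to 2.56 CPM (-7.62).

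Late cornified envelope genes shared this fall. Of 17 tested, 15 were called lower and none higher, with a median log2 fold change of -4.37 and a summed level of 907, 1240 and 50.6 CPM. The fitted change was negative for all 17, from -5.23 to -0.49, and these are near-identical paralogs, between which reads can be split. Lce1m was at 206, 298 and 10.4 CPM (-4.60), against 399, 418 and 748 CPM in WT (interaction -5.47 ± 0.37, adjusted p = 5.45e-05). The small proline-rich genes, also paralogs, were split, with 3 called higher and 4 lower of 7. Sprr1a, which is induced in stressed epidermis, rose from 314 and 408 CPM to 1191 CPM (1.72), and Sprr2a1 fell from 15.6 and 19.8 CPM to 4.81 CPM (-1.88). Ivl, involucrin, was at 183, 215 and 139 CPM (-0.51), a call lost with a day 1 library left out (-0.64 without the female, -0.42 without the male).

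Kallikrein proteases were among the epidermal genes that rose. Klk6 went from 26.8 and 35.6 CPM to 598 CPM (log2 fold change 4.26 ± 0.15), and in WT it was at 19.5, 20.8 and 6.01 CPM (interaction 6.01 ± 0.33, adjusted p = 2.28e-05). Klk7, which digests corneodesmosomes so that surface cells can shed, rose from 601 and 735 CPM to 1716 CPM (1.36). Among 27 enzymes and transporters of the barrier lipids 9 were called higher and 12 lower (4 and 6 without the female, 5 and 5 without the male day 1 library). Alox12b, the lipoxygenase that prepares ceramides for the envelope, fell from 74.3 and 114 CPM to 13.5 CPM (-2.80), while Cers4, a ceramide synthase, rose from 10.3 and 9.11 CPM to 108 CPM (3.48).

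Of 50 keratin genes 36 were called lower and 10 higher, and the keratins made under stress were among those that rose. Krt6a was at 98.8 and 118 CPM at day 1 and 4562 CPM at day 21 (log2 fold change 5.40 ± 0.15, adjusted p = 2.02e-122). In WT it was at 64.5, 67.7 and 84.1 CPM (interaction 5.05 ± 0.30, adjusted p = 2.83e-05), so the day 21 knockout library stood above every other library of the series. Its partner Krt17 was at 3202, 3404 and 20529 CPM (2.64 ± 0.11), with 2102, 2838 and 516 CPM in WT (interaction 4.89 ± 0.35, adjusted p = 6.35e-05). Krt16 rose from 138 and 150 CPM to 461 CPM (1.68) and Krt6b from 2.60 and 5.01 CPM to 96.0 CPM (4.65). Reads of Krt6a and Krt6b, or of Krt14, Krt16 and Krt17, can be split between these paralogs. Gjb2, the gap junction protein connexin 26, rose with them from 28.8 and 37.7 CPM to 510 CPM (3.94). The alarmins did not follow: S100a8 was at 2.94, 2.32 and 4.31 CPM and did not pass the test.

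Per kilobase of gene length, the order of 11 keratins changed. At day 1 Krt10 led with a mean level of 9237 CPM per kb, before Krt5 at 7978, Krt14 at 6810 and Krt1 at 6150 CPM per kb. At day 21 Krt17 led with 13236 CPM per kb, before Krt14 at 9934 and Krt5 at 6073 CPM per kb. Krt6a moved from the tenth place (44.8 CPM per kb) to the fifth (1887 CPM per kb), and Krt15 from the fifth (2163 CPM per kb) to the tenth (162 CPM per kb).

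The hair shaft program was present at day 1 and all but gone at day 21. Of the 53 tested hair keratin and keratin-associated genes, 52 were called lower and none higher, and their summed level went from 3130 and 3920 CPM to 14.1 CPM. In the day 21 library 26 of the 53 had 0 counts. The fitted median log2 fold change was -8.65, which depends on the prior count for genes near 0, and it was -5.84 with the 45 members at 3 or fewer counts set to a floor of 3. The exception was Krt84, which did not pass the test. Reads of these families can be split between paralogs. WT showed a fall of the same list (median -4.95), and the interaction passed for 18 members, all more negative in the knockout.

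Single members make the scale plain. Krt33b, an acidic hair keratin, had 3083 and 3977 counts at day 1 and 0 at day 21 (at least 1040-fold lower), and Krt81, a basic one, 4571, 6372 and 0 counts (at least 1610-fold lower). Gprc5d, a receptor of the hair cortex, had 1255, 1470 and 0 counts (at least 401-fold lower). Krtap16-3, a keratin-associated protein that cross-links hair keratin, had 981, 1260 and 0 counts (at least 329-fold lower). No day 21 count of these genes came near a day 1 count.

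Most genes of the inner root sheath, which molds the growing shaft, were lower as well. Of its 19 tested genes, companion layer included, 14 were called lower and 3 higher, the 3 being Krt6a, Krt79 and Ctsc. The summed level of the list went the other way, from 7070 and 7660 CPM to 16700 CPM, of which Krt79 held 11654 and Krt6a 4562 CPM at day 21. The fitted median log2 fold change was -5.49, and -5.05 with the 5 members at 3 or fewer counts set to the floor. Krt71 was at 633, 837 and 2.87 CPM (-8.0) and Tchh, trichohyalin, at 750, 805 and 6.43 CPM (-6.92). Regulators of the matrix and of follicle morphogenesis followed with 22 of 35 called lower and 8 higher (median -1.24, with 5 called higher when either day 1 library was left out). Hoxc13, a transcription factor of the hair shaft, went against the hair keratins and rose from 5.04 and 6.84 CPM to 96.0 CPM (4.01).

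Promoters of genes that move together are shown for 3 lists. The genes shown were taken from the called members with the largest absolute fold changes whose promoter held every motif searched for in that list. A motif in a shown promoter is thus there by choice. The promoters run from 250 bases before to 50 after the start of the gene, come from RefSeq on build GRCm38.p6, and are written 5′ to 3′ on the gene's strand. Capitals mark the searched motif on either strand, so a motif on the opposite strand appears as its reverse complement. The hair shaft genes Krt33b (chr11:100029819-100030118, minus strand) and Krtap16-3 (chr16:88962824-88963123, minus strand) are shown with the TATA box (TATAAA), and both were at 0 counts at day 21.
Krt33b: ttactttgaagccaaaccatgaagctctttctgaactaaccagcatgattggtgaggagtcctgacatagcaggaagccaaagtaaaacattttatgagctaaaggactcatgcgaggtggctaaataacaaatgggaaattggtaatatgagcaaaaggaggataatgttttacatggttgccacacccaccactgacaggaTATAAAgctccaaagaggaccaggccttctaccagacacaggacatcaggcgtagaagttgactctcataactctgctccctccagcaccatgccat
Krtap16-3: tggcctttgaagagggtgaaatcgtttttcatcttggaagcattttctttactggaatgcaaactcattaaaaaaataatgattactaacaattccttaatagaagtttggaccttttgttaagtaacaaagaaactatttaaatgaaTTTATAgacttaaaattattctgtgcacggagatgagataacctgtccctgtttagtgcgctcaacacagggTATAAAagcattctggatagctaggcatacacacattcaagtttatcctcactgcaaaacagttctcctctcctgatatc
The TATA box of Krt33b starts at position -47 and those of Krtap16-3 at -102, on the opposite strand, and at -30, counted from the start of the gene. A promoter was found for 42 of the 53 hair shaft genes, and 34 of these (81.0%) held TATAAA, against 1123 of 11482 (9.78%) promoters of tested genes and 4234 of 27025 (15.7%) promoters of the whole table. A match of letters is a description and not a shown binding site.

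Stem cell and outer root sheath genes split. Of 30 tested, 13 were called higher and 9 lower, close to balance, with a median log2 fold change of 0.22. The receptors of the R-spondin family took opposite courses. Lgr6 (ENSMUSG00000042793, GRCm38 chr1:134983301-135105276, minus strand), which marks stem cells of the isthmus above the bulge, was at 115 and 112 CPM at day 1 and 0.437 CPM (7 counts) at day 21 (-8.0 ± 0.29, adjusted p = 5.96e-89). WT libraries were at 129, 115 and 63.3 CPM (interaction -7.06 ± 0.37, adjusted p = 2.28e-05). Lgr5, which marks the bulge and the hair germ, was at 1.02, 0.701 and 19.8 CPM (4.52 ± 0.29), a rise that did not differ from that in WT beyond the error (0.19 ± 0.48, adjusted p = 0.799, with 0.803, 0.825 and 16.6 CPM in WT).

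Sox9, a transcription factor of bulge and outer root sheath cells, was at 58.7, 55.0 and 490 CPM (log2 fold change 3.11 ± 0.14), and in WT at 46.7, 49.1 and 77.1 CPM (interaction 2.42 ± 0.24, adjusted p = 0.000226). Cd34, the surface marker by which bulge stem cells are sorted, was at 0.453, 0.323 and 12.1 CPM (4.94 ± 0.37), with 0.860, 0.825 and 2.74 CPM in WT (interaction 3.25 ± 0.58, adjusted p = 0.00375). Both markers were thus higher in the day 21 knockout library than in any other library of the series. By flow cytometry the study found fewer CD34-positive bulge cells in the knockout, also at the first resting phase. That is a share of cells by surface protein, whereas the level here is RNA of all epidermal cells. Which cells carried the Cd34 reads was not tested. In a whole tissue, more cells of a type and more RNA per cell cannot be told apart, here and throughout. Postn, a matrix protein of the follicle, fell from 725 and 558 CPM to 135 CPM (-2.24).

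Genes of the upper follicle were higher at day 21. Of 16 genes of the upper follicle and infundibulum 13 were called higher and 2 lower (median log2 fold change 1.37). Their summed level went from 10300 and 10900 CPM to 43500 CPM, of which Krt79 held 11654 and Cst6 8902 CPM. Krt79 also counts in the inner root sheath and sebaceous gland sums. The interaction passed for 14 of them, 12 more positive and 2 more negative in the knockout, and the WT median was -0.95. Krt79, a keratin of the infundibulum and sebaceous duct, was at 4476, 4515 and 11654 CPM (1.37 ± 0.11), with 2868, 3709 and 523 CPM in WT (interaction 4.03 ± 0.32, adjusted p = 9.16e-05). Cst6, a cysteine protease inhibitor of the infundibulum and cornified layer, was at 1404, 1709 and 8902 CPM (2.52 ± 0.12; interaction 4.22 ± 0.34, adjusted p = 9.3e-05). Defb6, a defensin, rose from 87.4 and 80.6 CPM to 786 CPM (3.23). The 2 that fell were Lgr6 and Fst, the latter an antagonist of activin, at 143, 135 and 19.5 CPM.

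The sebaceous gland list rose as well, with 20 of 25 called higher and 2 lower (1 lower when either day 1 library was left out), a median log2 fold change of 2.02 and a summed level of 5280, 5450 and 13100 CPM. Krt79, which also stands in the upper follicle list, held 11654 CPM of the day 21 sum. In WT the median was -0.30, and the interaction passed for 20 genes, 18 of them more positive in the knockout. Enzymes that make sebum waxes rose from low levels in the knockout: Awat1, a wax synthase, was at 0.962, 1.08 and 17.6 CPM (4.10), Far2, a fatty acyl reductase, at 8.60, 7.87 and 71.9 CPM (3.13), and Fa2h, a fatty acid hydroxylase, at 6.17, 7.82 and 56.0 CPM (3.00). In WT, Awat1 was at 5.22, 6.60 and 2.26 CPM and Fa2h at 46.2, 65.1 and 28.6 CPM. Both were thus lower in the knockout than in WT at day 1, and the day 21 knockout level of Fa2h lay within the WT day 1 range. Plin2, which coats lipid droplets, rose from 23.9 and 24.3 CPM to 121 CPM (2.32). The members that fell were Dgat2, the last enzyme of triglyceride synthesis, at 215, 290 and 115 CPM (-1.14), and Acsbg1, an acyl-CoA synthetase, at 263, 321 and 193 CPM (-0.60). Pparg, the regulator of sebocyte differentiation, was at 2.21, 2.59 and 3.44 CPM and did not pass the test.

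**Figure D2:**
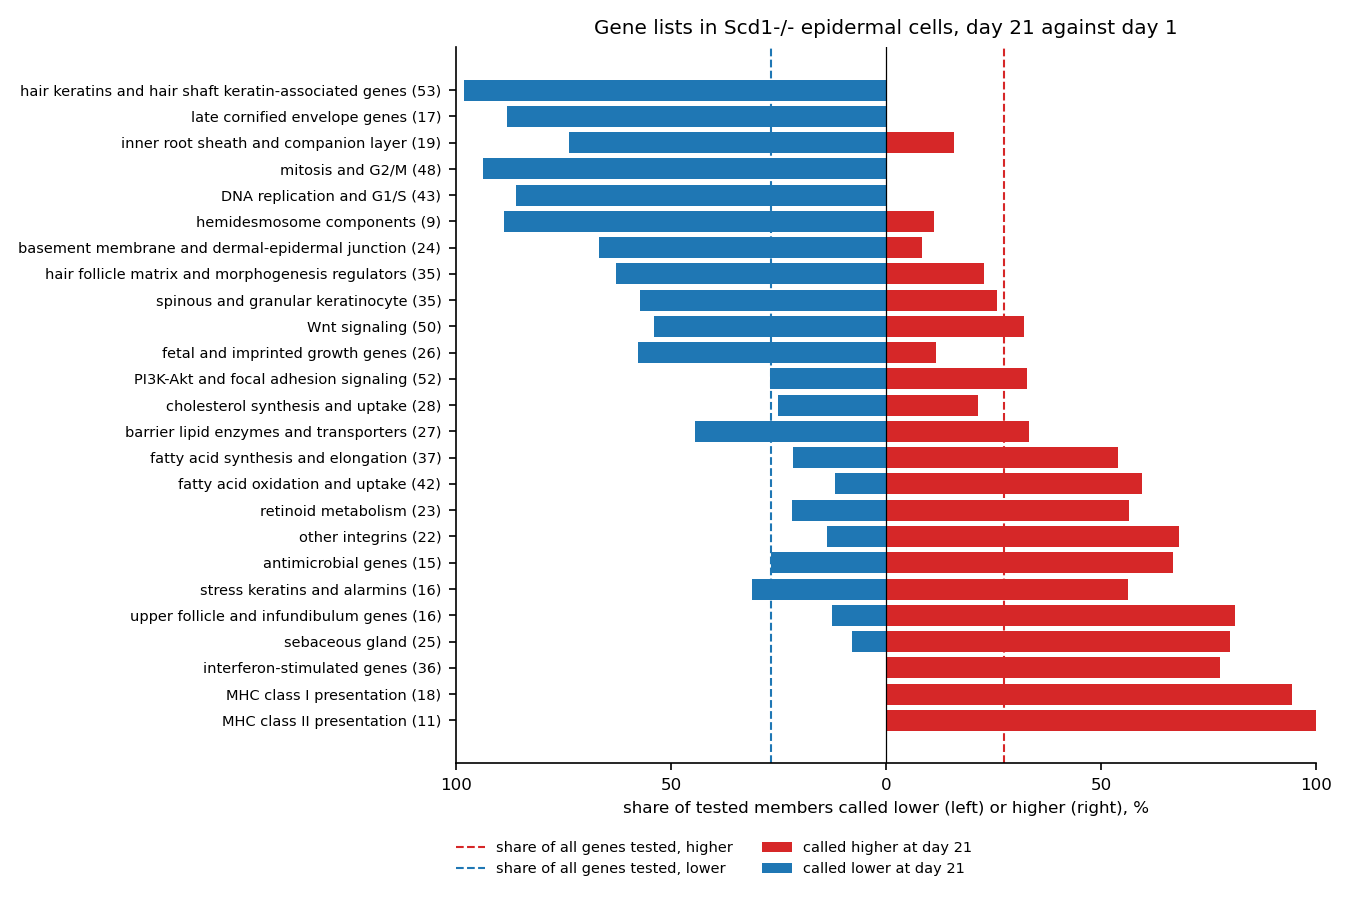
Share of the tested members of 25 gene lists called lower (bars to the left, percent) and higher (bars to the right, percent) in the day 21 Scd1-/- library than in both day 1 libraries. Dashed lines mark the share of all tested genes, 26.8% lower and 27.4% higher; 52 of the 53 hair shaft genes lie on the lower side and all 11 class II genes on the higher side.

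Fatty acid metabolism outside the gland was mixed. Of 37 genes of synthesis and elongation 20 were called higher and 8 lower (12 higher without the female and 13 higher and 4 lower without the male day 1 library), with a median log2 fold change of 0.51. Enzymes of the first steps fell: Fasn was at 329, 396 and 215 CPM (-0.75) and Acaca, acetyl-CoA carboxylase, at 102, 119 and 61.3 CPM (-0.85). Among those that rose were Elovl6, an elongase, at 94.4, 98.7 and 189 CPM (0.97) and Fads3, of the fatty acid desaturase family, at 12.8, 10.6 and 180 CPM (3.94). Among 42 genes of fatty acid uptake and oxidation 25 were called higher and 5 lower (11 and 3 without the female, 10 and 3 without the male day 1 library), and their summed level went from 2460 and 2560 CPM to 6240 CPM, of which Ucp2 accounted for 248, 238 and 2928 CPM (3.59).

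Of 28 genes of cholesterol synthesis and uptake 6 were called higher and 7 lower (3 and 4 without the female, 3 and 3 without the male day 1 library), while in WT the median was -1.18 and the interaction passed for 14, all more positive in the knockout.

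Respiratory genes differed between genotypes as well. Of 43 nuclear genes of oxidative phosphorylation 19 were called higher and none lower in the knockout, with a small median log2 fold change of 0.30 and no member at 2-fold, and 2 were called higher when either day 1 library was left out. In WT the median was -1.12, and the interaction passed for 42 of the 43, each more positive in the knockout. With scaling by library size alone, which moves the median interaction over all genes from -0.05 to -0.40, it passed for 37, none of them negative, and in the knockout 14 members were then called higher and 1 lower. The 13 mitochondrially encoded protein genes were called higher in 12 cases (median 1.77, summed level 18700, 18300 and 81400 CPM) along with the mitochondrial share given above, and their interaction passed for 1 gene, in the negative direction.

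Proliferation genes fell in both genotypes. Of 43 genes of DNA replication and the G1/S step 37 were called lower and none higher (median log2 fold change -1.36), and of 48 genes of mitosis and G2/M 45 were called lower and none higher (median -1.13). Medians in WT were -1.52 and -1.38, and the interaction passed for 7 and 9 of them. Mki67, the proliferation antigen Ki-67, was at 196, 142 and 82.9 CPM (-1.03 ± 0.15, with an interaction of -0.47 ± 0.38, adjusted p = 0.372). Top2a, the topoisomerase that untangles chromosomes, was at 209, 190 and 64.4 CPM (-1.63), and Foxm1, which drives the G2/M genes, at 57.0, 60.9 and 13.5 CPM (-2.13). Mcm2, a subunit of the replicative helicase, fell from 105 and 117 CPM to 30.1 CPM (-1.88), and Pcna, the replication clamp, from 158 and 159 CPM to 118 CPM (-0.42). Cks2, Mybl2 and Bub3 were the mitosis genes that were not called.

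The mitosis genes Bub1b, a kinase of the spindle checkpoint (60.0, 59.6 and 16.9 CPM, log2 fold change -1.83), and Kif23, a motor of cytokinesis (59.0, 47.0 and 15.3 CPM, -1.79), have both boxes known from cell cycle promoters. They are shown with the CCAAT box (CCAAT) and the cell cycle genes homology region, called CHR (TTTGAA), in capitals, Bub1b at chr2:118597961-118598260 on the plus strand and Kif23 at chr9:61946750-61947049 on the minus strand.
Bub1b: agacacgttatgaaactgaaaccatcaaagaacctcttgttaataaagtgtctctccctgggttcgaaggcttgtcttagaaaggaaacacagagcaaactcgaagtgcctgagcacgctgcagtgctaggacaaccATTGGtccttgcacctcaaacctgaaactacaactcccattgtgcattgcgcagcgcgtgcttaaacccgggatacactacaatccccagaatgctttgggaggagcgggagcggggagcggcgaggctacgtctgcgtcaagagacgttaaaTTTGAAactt
Kif23: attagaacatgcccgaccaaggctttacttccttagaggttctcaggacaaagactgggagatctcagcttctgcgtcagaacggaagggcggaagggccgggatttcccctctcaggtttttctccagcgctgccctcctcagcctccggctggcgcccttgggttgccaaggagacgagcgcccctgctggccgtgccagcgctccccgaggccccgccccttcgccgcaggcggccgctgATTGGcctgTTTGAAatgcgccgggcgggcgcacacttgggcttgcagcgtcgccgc
The CCAAT boxes start at -113 and -7, both on the opposite strand, and the CHR at 40 and 2. A promoter was found for 40 of the 48 mitosis genes, of which 29 (72.5%) held CCAAT and 27 (67.5%) TTTGAA, against 42.1% and 15.1% of promoters of tested genes and 41.1% and 20.2% of all promoters. Both motifs stood together in 23 of 40 (57.5%), against 841 of 11482 (7.32%) of tested genes.

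Fetal growth genes were lower at day 21 in both genotypes. Of 26 tested, imprinted growth genes included, 15 were called lower and 3 higher (median log2 fold change -1.23, summed level 2450, 2490 and 450 CPM). H19, an imprinted noncoding RNA, was at 1652, 1756 and 13.2 CPM (-7.01 ± 0.22), with 1815, 2895 and 13.9 CPM in WT (interaction 0.40 ± 0.40, adjusted p = 0.472). Igf2, the growth factor of the same locus, had 63, 65 and 0 counts (at least 18.9-fold lower). Peg3, an imprinted zinc finger gene, fell from 143 and 96.4 CPM to 1.62 CPM (-6.20), and to 16.1 CPM from 183 and 101 CPM in WT (interaction -3.06, adjusted p = 0.00626).

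Wnt ligands and their receptors moved in opposite directions. Wnt proteins are secreted signals that bind Frizzled receptors and start hair growth, and R-spondin receptors of the Lgr family prolong the signal. Of 11 ligand genes tested 10 were called lower and 1 higher (median log2 fold change -3.86, also with the 2 genes at 0 counts set to the floor), and their summed level went from 988 and 1020 CPM to 124 CPM. Of 9 Frizzled genes 8 were called higher and 1 lower (median 1.86, summed level 500, 500 and 1130 CPM). The ligand interaction passed for 9 genes more negative and 1 more positive in the knockout, and that of the receptors for 7 more positive and 1 more negative. These subgroups were taken from a list of 50 Wnt pathway genes, of which 16 were called higher and 27 lower.

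Among the ligands, Wnt3a had 476 and 500 counts at day 1 and 0 at day 21 (at least 144-fold lower), and Wnt7a 200, 202 and 0 counts (at least 59.2-fold lower). Wnt4 was at 404, 380 and 27.0 CPM (log2 fold change -3.86 ± 0.19), with 447, 516 and 56.6 CPM in WT (interaction -0.77 ± 0.27, adjusted p = 0.0583). Wnt10a, mutated in ectodermal dysplasia, was at 100, 106 and 10.9 CPM (-3.25), Wnt3 at 190, 210 and 11 CPM (-4.19) and Wnt7b at 145, 168 and 17.7 CPM (-3.14). Each of these day 21 values lay far below both day 1 values. Wnt11 alone rose, at 11.1, 12.2 and 50.5 CPM (2.11 ± 0.20; interaction 1.71 ± 0.46, adjusted p = 0.0222).

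Of the receptors, Fzd7 was at 61.1, 57.8 and 286 CPM (log2 fold change 2.27 ± 0.14), and in WT at 47.3, 51.3 and 69.5 CPM (interaction 1.77 ± 0.25, adjusted p = 0.00113). Fzd1 rose from 37.6 and 39.1 CPM to 195 CPM (2.35) and Fzd6, a planar polarity receptor that orients hairs, from 129 and 112 CPM to 368 CPM (1.61). Fzd10 fell, from 203 and 229 CPM to 26.7 CPM (-3.01). The co-receptor gene Lrp4 was at 400, 370 and 36.9 CPM (-3.38). Ctnnb1, β-catenin, rose from 632 and 594 CPM to 1305 CPM (1.09), while Axin2, a direct target of the pathway, fell from 68.0 and 74.8 CPM to 30.7 CPM (-1.22).

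**Figure D3:**
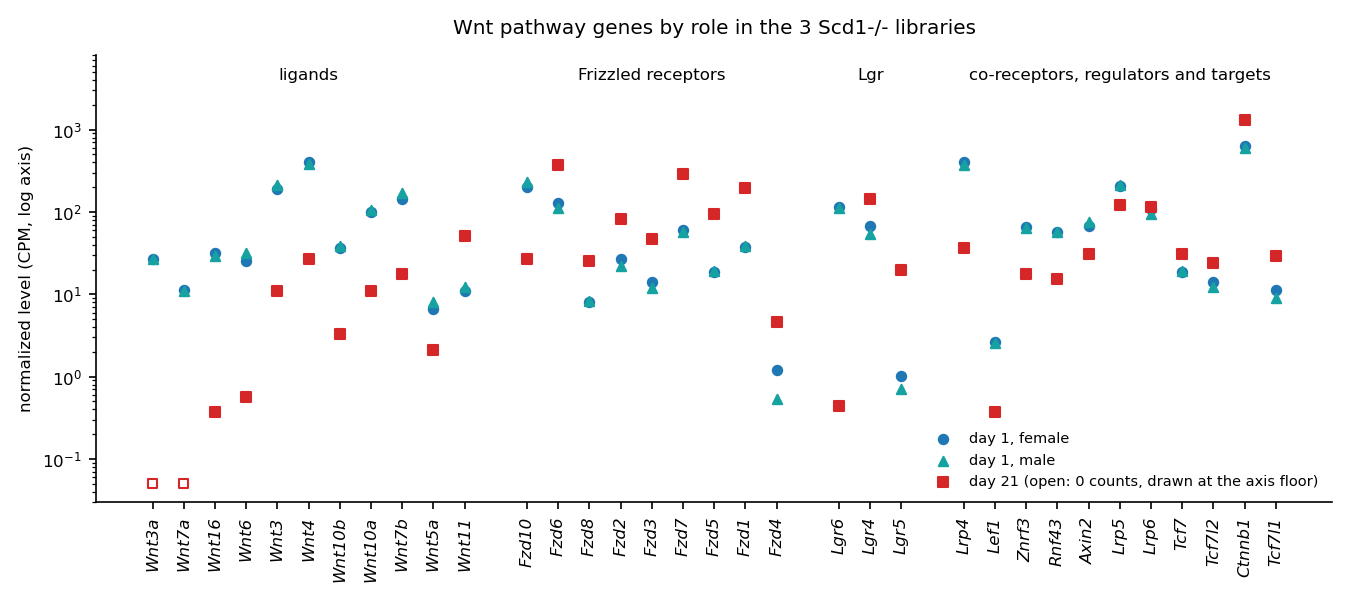
Level in CPM (log axis) of the Wnt ligand, Frizzled, Lgr and co-receptor genes in the 3 Scd1-/- libraries, 1 point per library; open squares at the foot of the axis stand for 0 counts. The day 21 points lie below both day 1 points for 10 of the 11 ligands and above them for 8 of the 9 Frizzled receptors.

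The Notch ligands Jag1 and Jag2 moved in opposite directions. Jag2 was at 421, 428 and 34.5 CPM (log2 fold change -3.62) and Jag1 at 90.5, 92.9 and 383 CPM (2.06), and Hes1, a target of Notch, rose from 44.7 and 47.0 CPM to 192 CPM (2.07). Over 23 Notch genes 7 were called higher and 7 lower.

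Transcripts of integrin signaling inside the cell did not move as a block. RNA does not show the activity of the pathway, which the study measured as phosphorylation of FAK, Src and PI3K. Of 52 PI3K-Akt and focal adhesion genes 17 were called higher and 14 lower (9 and 7 without either day 1 library), with a median log2 fold change at 0 to 2 decimals. Akt1, the central kinase, was at 226, 234 and 229 CPM and did not pass the test (adjusted p = 0.985). In WT it was at 237, 297 and 133 CPM, and the interaction was 1.00 ± 0.27 (adjusted p = 0.0245). Ptk2, focal adhesion kinase, was at 45.2, 41.6 and 92.0 CPM (1.08), Src at 66.5, 64.5 and 108 CPM (0.72) and Pik3r1, the regulatory subunit of PI3K, at 75.8, 59.3 and 92.7 CPM (0.46). The interaction passed for Ptk2 (1.52 ± 0.27, adjusted p = 0.00367) and Src (1.24 ± 0.27, adjusted p = 0.0095). For Pik3r1 it did not pass (-0.94 ± 0.32, adjusted p = 0.0542). Over the 52 genes it passed for 12 in the positive and 7 in the negative direction, and for 9 and 13 with scaling by library size alone. The calls of Src and Pik3r1 were lost with a day 1 library left out, where the spread came from the WT day 1 pair. Their log2 fold changes were then 0.73 and 0.63 without the female library and 0.67 and 0.26 without the male one. Larger differences stood elsewhere in the list: Irs1, an adaptor of insulin signaling, fell from 15.5 and 20.2 CPM to 1.12 CPM (-3.98), Tns1, which ties integrins to actin, from 133 in each day 1 library to 10.4 CPM (-3.68), and Actn1, an actin cross-linker, rose from 139 and 149 CPM to 1114 CPM (2.95).

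Antigen presentation rose. Of 18 genes of MHC class I presentation 17 were called higher and none lower (median log2 fold change 2.71, summed level 949, 942 and 6950 CPM), and all 11 tested genes of class II were called higher (median 2.69, summed level 540, 367 and 2680 CPM). WT medians were 2.15 and 1.86. B2m, the shared light chain of class I, was at 98.1, 99.2 and 1720 CPM (4.12 ± 0.15), with 96.8, 94.5 and 511 CPM in WT (interaction 1.71 ± 0.25, adjusted p = 0.00161). H2-K1, a heavy chain whose reads can be split with its paralogs, was at 155, 146 and 2094 CPM (3.80 ± 0.15), and its interaction did not pass (0.58 ± 0.26, adjusted p = 0.125).

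Interferon-stimulated genes had 28 of 36 called higher and none lower (median log2 fold change 1.73, and 1.54 in WT), and the interaction passed for 3 of them. Igtp, a GTPase that interferon-γ induces, was at 1.41, 1.46 and 11.9 CPM (3.04) and Gbp2, another, at 1.41, 2.05 and 7.50 CPM (2.11). Irf7, a regulator of the type I response, was at 6.68, 8.25 and 6.81 CPM and did not pass the test. The promoters of Igtp (chr11:58199306-58199605, plus strand) and Gbp2 (chr3:142620413-142620712, plus strand) are shown with the core of the interferon-stimulated response element, called ISRE (TTTC, any 2 bases, TTTC), in capitals.
Igtp: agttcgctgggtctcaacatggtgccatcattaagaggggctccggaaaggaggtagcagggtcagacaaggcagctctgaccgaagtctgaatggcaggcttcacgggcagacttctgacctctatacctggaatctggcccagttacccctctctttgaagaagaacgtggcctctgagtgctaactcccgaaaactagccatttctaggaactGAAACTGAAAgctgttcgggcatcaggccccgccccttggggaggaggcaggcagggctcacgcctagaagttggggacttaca
Gbp2: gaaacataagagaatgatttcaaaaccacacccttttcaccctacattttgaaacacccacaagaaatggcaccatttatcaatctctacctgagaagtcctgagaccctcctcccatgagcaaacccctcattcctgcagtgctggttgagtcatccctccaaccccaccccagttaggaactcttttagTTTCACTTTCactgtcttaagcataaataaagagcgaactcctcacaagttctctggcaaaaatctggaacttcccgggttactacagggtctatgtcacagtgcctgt
The ISRE core starts at -34 in Igtp, on the opposite strand, and at -59 in Gbp2. A promoter was found for 26 of the 36 interferon-stimulated genes, and 18 of them (69.2%) held it, against 432 of 11482 (3.76%) of tested genes and 1079 of 27025 (3.99%) of the whole table.

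Markers of immune cells rose beside these genes, and their part in the result was not tested. The Langerhans cell list shares members with the class II list above, among them Ctss (7.64, 6.14 and 165 CPM). The rises of these lists are thus not separate observations. All 15 Langerhans cell markers were called higher, from a summed 861 and 624 CPM to 4350 CPM; Cd207, langerin, was at 16.7, 8.73 and 46.2 CPM and Cd74, the class II chaperone, at 212, 153 and 923 CPM. All 23 T cell markers were called higher too, from 189 and 143 CPM to 672 CPM, with Trdc, the δ chain constant gene of the γδ T cell receptor, at 9.28, 6.47 and 49.1 CPM. For the T cell list the WT median (2.50) lay beside that of the knockout (2.49).

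Macrophage and mast cell markers rose in the knockout from near 0. The 14 tested of 20 listed genes, neutrophil genes included, were all called higher, with a summed level of 12.9, 12.4 and 518 CPM; a member passed the filter on low counts only where it had reads, and Ly6g, Mpo and Elane of neutrophils had 0 counts in all 3 libraries. The fitted median was 8.04, or 4.87 with the 7 members at 3 or fewer counts set to the floor, against 0.60 in WT, and the interaction passed for 10. Lyz2, lysozyme of macrophages, was at 0.962, 1.46 and 227 CPM (7.54 ± 0.19), with 2.01, 0.381 and 2.44 CPM in WT (interaction 6.55 ± 0.79, adjusted p = 0.000565). Cd163, a scavenger receptor of macrophages, had 0, 0 and 318 counts (at least 120-fold higher), and Cma1 and Tpsb2, the proteases of mast cells, 0, 0 and 77 counts each (at least 29.0-fold higher).

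Antimicrobial and signaling genes of keratinocytes were mixed. Of 15 antimicrobial genes 10 were called higher and 4 lower (median log2 fold change 1.46). Lcn2, which withholds iron from bacteria, was at 0.226, 0.323 and 41.7 CPM (7.20), while Stfa3, a cystatin whose family has near-identical copies, fell from 1719 and 1798 CPM to 115 CPM (-3.93). Of 37 cytokine and growth factor genes 13 were called higher and 14 lower (9 lower without the female day 1 library). Cxcl12, a chemokine, was at 11.4, 13.9 and 533 CPM (5.40; interaction 2.92 ± 0.28, adjusted p = 0.00019), and Hbegf, an EGF receptor ligand, at 41.4, 35.2 and 140 CPM (1.86). Il33, an alarmin, fell from 18.5 and 20.2 CPM to 2.87 CPM.

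Other cell types left their mark on the day 21 library, and their part in the results was not tested. Of the 6 tested erythroid markers 5 were called higher (summed level 4.81, 8.46 and 649 CPM), with Hbb-bs, a β-globin, at 0.453, 1.24 and 325 CPM. Smooth muscle and pericyte markers went from 349 and 370 CPM to 1050 CPM, with 6 of 9 called higher; Acta2, smooth muscle actin, was at 3.17, 3.99 and 176 CPM (log2 fold change 5.62), but the defining gene Myh11 had 3, 4 and 0 counts and Des 0, 1 and 0. Melanocyte markers were called lower in 9 of 13 cases (286, 278 and 112 CPM), with Dct, an enzyme of melanin synthesis, at 89.8, 90.8 and 10.2 CPM (-3.15). Fibroblast markers stood at 154, 162 and 106 CPM, with 5 of 9 called higher and 2 lower, and Twist2 and Mfap5 at 0 counts. The 2 lower ones were Fbln1 (70.8, 80.9 and 11.5 CPM) and Dpp4 (32.5, 35.1 and 6.62 CPM), which held most of the sum at day 1. Endothelial markers stood at 5.21, 2.91 and 11.6 CPM, with 5 of 7 called higher and none lower. Of the 12 listed, Flt1, Tie1, Emcn, Esam and Cldn5 had too few reads to be tested. A low marker could pass the filter through the day 21 library alone, which favors calls of a rise. This also holds for the erythroid (6 tested of 11 listed), fibroblast (9 of 15) and smooth muscle (9 of 14) lists. Skeletal muscle, adipocyte, Merkel cell and Schwann cell markers summed to at most 56.3 CPM in any library.

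**Figure D4:**
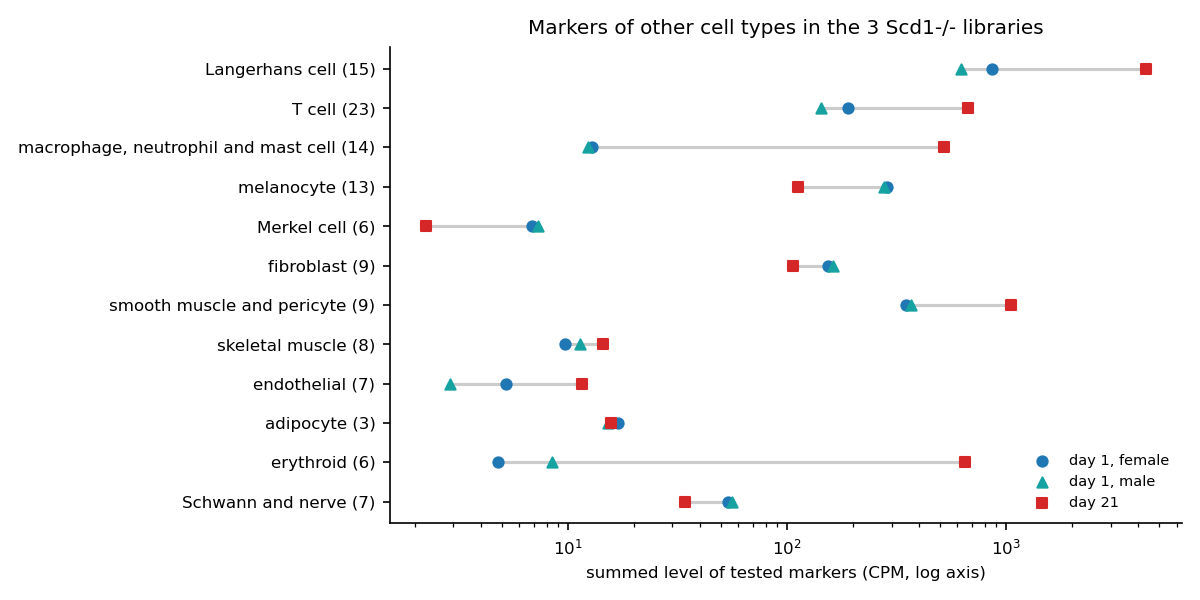
Summed level in CPM (log axis) of 12 cell type marker lists in the 3 Scd1-/- libraries, 1 point per library. Erythroid markers (4.81, 8.46 and 649 CPM) and macrophage, neutrophil and mast cell markers (12.9, 12.4 and 518 CPM) lie farther apart between ages than the other lists, and melanocyte markers (286, 278 and 112 CPM) lie lower at day 21.

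Retinoid genes were higher on the whole, with 13 of 23 called higher and 5 lower (2 lower without the female, 1 lower without the male day 1 library). The interaction passed for 14, 12 of them more positive in the knockout. Aldh1a2, which makes retinoic acid, had 0, 1 and 4114 counts, or 257 CPM at day 21. Dhrs9, a retinol dehydrogenase, rose from 0.509 and 0.27 CPM to 48.4 CPM (log2 fold change 6.94), Crabp2, a retinoic acid carrier, from 45.2 and 61.9 CPM to 334 CPM (2.64), and Lrat, which stores retinol as ester, from 1.53 and 0.970 CPM to 18.6 CPM (3.89).

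Clock genes were lower at day 21 in the knockout. Of 21, 11 were called lower and 3 higher (median log2 fold change -0.53, and 0.84 in WT), and the interaction passed for 14, 11 of them more negative in the knockout. Nr1d1, a repressor of the clock, was at 44.9, 40.9 and 5.62 CPM (-2.93). Rora, its activating counterpart, was at 208, 182 and 29.5 CPM (-2.72), against 218, 126 and 220 CPM in WT (interaction -3.08 ± 0.41, adjusted p = 0.000969). Per3 went in opposite directions, with 20.2, 21.5 and 8.50 CPM in the knockout and 21.7, 22.7 and 65.0 CPM in WT (-2.84 ± 0.30, adjusted p = 0.00028). The hour at which skin was taken is not given in the labels.

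Some of the largest rises were those of genes nearly silent at day 1. Igfl3, an insulin growth factor-like gene, had 0, 0 and 1024 counts (at least 386-fold higher). Cmah, the hydroxylase that makes one form of sialic acid, was at 1.13, 0.431 and 504 CPM (log2 fold change 9.33 ± 0.21), with 1.20, 1.14 and 29.6 CPM in WT. Gpx2, a glutathione peroxidase of epithelia and a member of the NRF2 and glutathione list, was at 0.509, 0.701 and 220 CPM (8.48 ± 0.21), and Ret, a receptor tyrosine kinase, at 0.622, 0.377 and 85.7 CPM (7.41 ± 0.26). In all of these the day 1 libraries were together near 0 and the day 21 library stood alone.

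**Figure D5:**
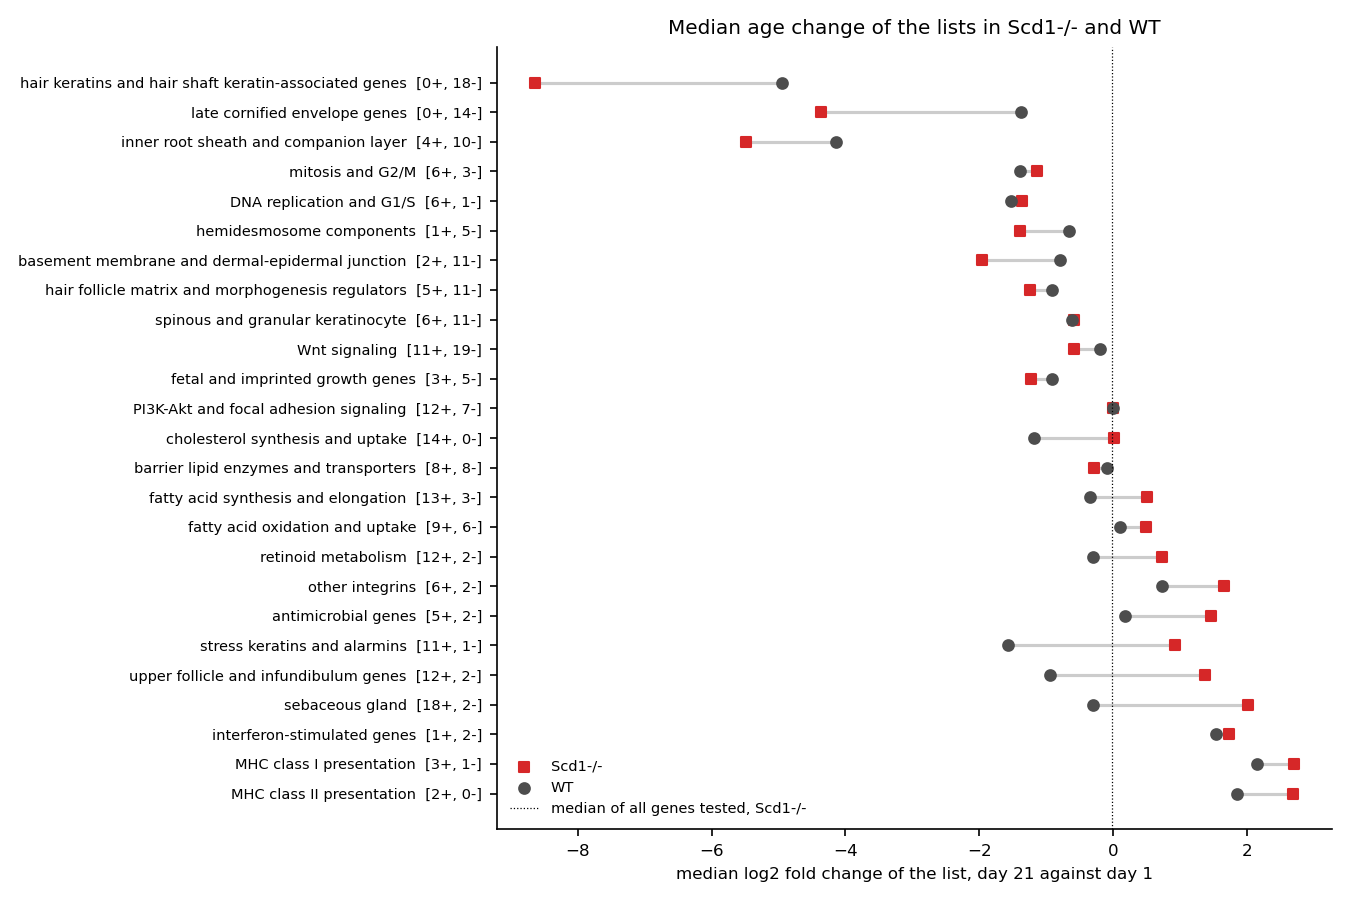
Median log2 fold change, day 21 minus day 1, of 25 gene lists in Scd1-/- (squares) and in WT (circles), with the number of members whose interaction passed in brackets (more positive, more negative in Scd1-/-). The genotypes lie on opposite sides of 0 for the upper follicle (1.37 and -0.95), sebaceous gland (2.02 and -0.30) and stress keratin (0.93 and -1.57) lists, and on the same side for MHC class I presentation (2.71 and 2.15).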

How the data were processed

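RNA of total epidermal cells was sequenced in 6 libraries, of which the 3 Scd1-/- libraries are described here. The authors deposited raw read counts per gene, in a table for each age. Per the submitters' processing notes, reads were aligned with HISAT2 2.0.5 to GRCm38 (mm10), counted with featureCounts 1.5.0-p3 and compared with DESeq2 1.16.1. Strand use in counting is not given in the sources used here. The tables also held 16 per-sample columns that were not used here, and the authors' own fold changes and p-values, which were not used.

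Both tables held the same 54532 gene identifiers and were joined on them. In R 4.3.3, edgeR 4.0.16 (limma 3.58.1) was used with TMM scaling, filterByExpr by age group and the quasi-likelihood test, with Benjamini-Hochberg adjustment across every tested gene. A gene was called at an adjusted p under 0.05 where its day 21 CPM also lay outside both day 1 values. The interaction with genotype was fitted on all 6 libraries, and WT CPM values are on the scale of that fit. Lists were composed by hand from textbook knowledge (53 lists). Members and lists were chosen with earlier results of these data known. Genes named by rule were the 10 largest rises and 10 largest falls among called protein-coding genes averaging 20 CPM or more, up to 3 called members per list with at least 5 CPM, a fixed set (the Scd family, hemidesmosome genes, main keratins, Lor, Flg, Ivl, Cd34, Lgr5, Sox9, Mki67, Ptk2, Src, Akt1, Pik3r1) and the 5 largest interactions in each direction, and some of them are not reported here. Other members named were chosen after their values were seen. CPM per kb used the gene length in the tables. A bound on a fold change sets 0 counts to a floor of 3 counts per library and covers counting error only.

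Alternatives were RLE size factors, library size alone, DESeq2 1.42.0, no filter, at least 10 counts in every library, all 6 libraries with or without sex as a term, a 2-fold minimum, and each day 1 library left out. The sex term rests on the labels. Leaving out a day 1 library left the day 1 pair of the other genotype as the sole replicates, so the spread came from that pair. In simulated data, the age test recovered 99 of 100 genes changed 4-fold and 44 of 100 changed 2-fold with 3 false calls among 16148 genes, and the interaction test 86 and 10 of 100 with 10 false calls among 16937. The simulation changed 200 well-counted genes, gave every library the same spread, the day 21 one included, and used the adjusted p alone. In the data 54.2% of genes were called and the day 21 spread is unknown, so its false calls cannot be carried over to the data. Promoter sequences came from RefSeq, build GRCm38.p6.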

Additional observations from a re-analysis of the deposited data

Results flagged for a closer look

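A difference between the genotypes in the change from day 1 to day 21 was called for 2776 genes in the positive and 2336 in the negative direction (edgeR interaction test). The 5 largest such differences in each direction are given for genes averaging 20 CPM or more over the 4 group means, as log2 of the Scd1-/- change minus the WT change. Some genes under that mean had larger fitted values, among them Wnt3a at -10.56, with 0 counts in the day 21 knockout library, and C1qc, a complement gene of macrophages, at 9.34, both named after their values were seen.

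On the positive side stood Aldh1a2 at 7.08, Myl9, a myosin light chain, at 7.06, Lyz2 at 6.55, Acta2 at 6.15 and Klk6 at 6.01. Aldh1a2 had 0, 1 and 4114 counts in Scd1-/- and 1, 1 and 62 in WT, so its value depends on the prior count. Myl9 was at 5.04, 5.61 and 78.2 CPM in Scd1-/- and 1.95, 3.62 and 0.298 CPM in WT. Acta2 was at 3.17, 3.99 and 176 CPM in Scd1-/- and 1.09, 1.33 and 0.834 CPM in WT.

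On the negative side stood the targeted gene Scd1 at -10.86, Tnxb, tenascin X, at -8.36, Efemp1, a fibulin, at -7.97, Mrgprb11-ps, a pseudogene, at -7.37 and Ces2f, a carboxylesterase, at -7.20. Scd1 had 0 counts in the day 21 knockout library, so its value depends on the prior count as well. Tnxb was at 37.9, 35.4 and 0.812 CPM in Scd1-/- and rose in WT, at 39.7, 38.5 and 287 CPM. Efemp1 was at 48.5, 40.3 and 0.250 CPM in Scd1-/- and 55.4, 53.8 and 79.5 CPM in WT. Mrgprb11-ps was at 2.77, 3.72 and 0.687 CPM in Scd1-/- and 2.64, 2.22 and 86.3 CPM in WT, so its difference rests on the WT day 21 library, and its reads can be split with its paralogs. Ces2f was at 60.8, 94.8 and 0.500 CPM in Scd1-/- and 86.8, 78.2 and 79.2 CPM in WT. Each genotype has 1 day 21 library.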

How the results depend on the processing

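No gene called in the 3 Scd1-/- libraries was called in the opposite direction under any alternative. The count of genes called higher (4592) was 2924 with DESeq2, 2662 with a 2-fold minimum, 2918 with that minimum and no test, and 2589 to 2811 with a day 1 library left out, and the count called lower (4495) was 2711, 2668, 3270 and 2713 to 2811. Library size alone gave 3465 higher and 5332 lower (39.4% of calls higher, against 50.5%) and moved the median of all genes from -0.02 to -0.20. The interaction counts (2776 and 2336) were 1714 and 3286 with library size alone, 4316 and 3854 with sex as a term, and 2103 to 3957 and 1798 to 3723 with a day 1 library left out, the upper ends without the female WT library.

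List medians that changed sign were those of the interstitial matrix (-1.72 with at least 10 counts in every library), small proline-rich genes (1.40 with no filter, 0.15 with 6 libraries and sex), cytokines (-0.10 with library size, -0.11 with no filter, -0.0202 with at least 10 counts, -0.0144 to 0.0301 with a library left out), Scd genes (0.16 with at least 10 counts), cholesterol (-0.17 with library size, -0.0026 with at least 10 counts, -0.0439 to 0.0432 with a library left out), glycolysis (-0.0605 with library size), PI3K-Akt (0.0093 with RLE, 0.0092 with DESeq2, 0.0593 with sex, -0.0056 to 0.01 with a library left out), NRF2 (0.30 with sex, -0.1554 to 0.2373 with a library left out), adipocyte markers (-0.85 with at least 10 counts) and sex-linked genes (-0.27 to 11.49 with a library left out). Akt1 changed sign near 0 (0.0078 with RLE and with DESeq2, 0.089 with sex). The cause of these shifts was not tested.

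No paired analysis was possible because the groups of an age comparison share fewer than 2 replicate numbers. Limits are the lone day 21 library, whose own spread is unknown and whose label for sex its transcripts contradict, and the table for each age. Genes at 3 or fewer counts in a library carry no reliable fold change at these depths.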

Other observations

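In several groups members were called in both directions, where 27.4% of all genes tested were called higher and 26.8% lower. Of 38 BMP and TGF-β genes 15 were called higher and 14 lower, of 32 desmosome and tight junction genes 14 and 9, of 20 cell cycle inhibitors 7 and 5, of 22 glycolysis genes 8 and 5, and of 35 NRF2 and glutathione genes 13 and 14. Of 31 immediate early and heat shock genes 12 were called higher and 14 lower, the 14 including the large falls of Fosb (-5.73), Atf3 (-5.33) and Fos (-3.06), and the interaction passed for 12 in the positive and 1 in the negative direction. Among 94 ribosomal protein genes 14 were called higher and 5 lower in Scd1-/-, with a median log2 fold change of 0.17, while the interaction passed for 68 in the positive and 2 in the negative direction. Of 35 genes whose symbol begins with Col 9 were called higher and 19 lower, with a summed level of 5790, 5630 and 1290 CPM.

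Bmp2, a signal of the follicle, fell from 54.3 and 45.7 CPM to 2.0 CPM. Insig2, which holds back cholesterol synthesis, rose from 61.5 and 67.3 CPM to 484 CPM (log2 fold change 2.91). Sgk1, a kinase beside Akt, was at 109, 102 and 665 CPM (2.66).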
